A study of Mus musculus with 4 samples.

Results

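The genes described here are 43 interferon-stimulated genes of the mouse, chosen by name from a fixed list. This list was set with earlier results of these data known. A gene was measured where at least 1 probe set carried its symbol and no other in the platform annotation, and its probe sets were averaged. This held for 41 of the 43 genes, with 67 of the 34945 probe sets with a single symbol, and 18193 genes were measured in all. Isg15 and Ifi44 had no such probe set and were left out. The members comprised 4 RNA sensors and kinases, 5 genes of the OAS family, 3 of the IFIT family, 4 transcription factors, 6 genes of the ubiquitin-like and ADP-ribosyl pathway, 4 GTPases, 9 other antiviral effectors, 5 genes of class I antigen presentation and 1 chemokine.

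The arrays compared mammary cells grown with Wnt3A, a ligand of the canonical Wnt pathway, and cells grown with its vehicle, CHAPS detergent in buffered saline. The cells came from virgin CD1 females aged 8 to 12 weeks and were sorted as lineage-negative, CD24+ and CD29hi, a gate enriched for mammary stem cells that holds the basal layer. They formed colonies in growth factor reduced Matrigel, a basement membrane gel, with EGF at 50 ng/ml, and those given Wnt3A received it at 200 ng/ml. The RNA is from passage 2 colonies grown for 6 to 7 days. There were 2 arrays for each condition, titled Wnt3A 1, Wnt3A 2, Control 1 and Control 2 and called so here. Arrays of the same number are compared below as numbers 2 and 1. The labels do not say whether a number marks a shared animal, culture or day, nor whether the arrays of a condition came from separate animals, so the spread on which p-values rest may be technical only.

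Interferons are cytokines that cells release when sensors detect viral nucleic acid, and they act on receptors of the same and neighbouring cells. Type I interferon activates the kinases JAK1 and TYK2, and these phosphorylate transcription factors, among them STAT2, which acts with IRF9 in the complex ISGF3. The complex binds the interferon-stimulated response element, a DNA motif in the promoters of many target genes. The targets include sensors, factors that keep the response going, enzymes that block viral replication and the machinery that shows peptides on MHC class I, so the genes often respond as a group. Epithelial cells respond to interferon, and Usp18 is a target that in turn damps signalling at the receptor.

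Values were log2 differences from the median of the 4 arrays for each probe set, and they hold no absolute level. In a gene with 1 probe set the 2 middle arrays therefore have equal values of opposite sign. A coarse level band could still be read from the precision of the stored numbers, taking the highest band among the probe sets of a gene. It was log2 8 to 16 for 23 members, log2 4 to 8 for 18 and below log2 4 for 0. Of all 18193 genes, 9018, 7169 and 2006 fell in these bands. Axin2, a feedback target of Wnt signalling, was at 0.60 and 0.19 in Wnt3A 1 and 2, against -0.27 and -0.59 in control 1 and 2. Procr, which encodes the protein C receptor, was at 0.66 and 2.31 with Wnt3A, against -1.87 and -0.66 in the controls. Of the basal cell markers 7 of 8 lay in the upper level band, which held 9018 of all 18193 genes. So did 5 of 7 luminal markers, against 2 of 11 immune cell markers, 0 of 4 endothelial and 0 of 5 fibroblast markers. Fewer cells of a type and less RNA per cell cannot be told apart in such bulk samples.

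The comparison of Wnt3A with vehicle asks which genes respond to the ligand in colonies. Interferon-stimulated genes had mostly lower values with Wnt3A: the mean difference was negative for 33 of 41 members, where 49.9% of all genes had a negative one, and the median difference was -0.33 log2 units, against 0.00011 over all genes. 3 members differed by at least 1 log2 unit, all lower (background 0.693%) and none higher (background 1.01%): the chemokine gene Cxcl10, the antiviral gene Ifit1 and Usp18. The limma test called no member. At an adjusted p under 0.05 it called 0 of 18193 genes (0%), with 1340 genes at an unadjusted p under 0.05, and the smallest adjusted p of a member was 0.44, for Cxcl10. Of the members, Cxcl10, Irf9, Cmpk2 and Psmb9, 4 in all, were lower at an unadjusted p under 0.05 (background 3.82%) and 0 higher (background 3.55%). An exact permutation test of 2 against 2 arrays cannot give a two-sided p below 0.33.

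The arrays of the conditions overlapped for most members. Both Wnt3A arrays lay below both controls for 8 members, or 19.5%, close to the 17.5% of all genes, and above both controls for 0 members, where 17% of all genes did so. The 8 were Cxcl10, Mx1, Irf9, Cmpk2, Ifi27, Psmb9, Oasl1 and Tap1. The median of the members by array was -0.32 in Wnt3A 1 and 0.09 in Wnt3A 2, against -0.11 in control 1 and 0.44 in control 2. Control 2 was the highest array for 31 members (background 19.6%) and Wnt3A 1 the lowest for 28 (background 19.5%). The median difference depended on these arrays: it was 0.06 without control 2 and -0.10 without Wnt3A 1, but -0.63 without control 1 and -0.51 without Wnt3A 2. The number of members below the controls likewise became 32 without control 1 (29% of all genes), 29 without Wnt3A 2 (28.8%), 9 without control 2 (38.6%) and 8 without Wnt3A 1 (38.5%). Among 7 measured luminal cell markers 2 were likewise below both controls in both Wnt3A arrays, Foxa1 at -1.85 and -0.68 with Wnt3A against 0.68 and 1.47 in the controls, and Krt19 at -0.02 and -1.61 with Wnt3A against 0.02 and 1.77 in the controls. Over the 7 luminal markers the median Wnt3A difference was -0.09, from -2.34 to 0.23, and 5 had a lower mean. Their median was 0.44 within number 1 and -0.81 within number 2, and 4 of the 7 differed in sign between the numbers. The median of the luminal markers by array was 0.02 and -0.68 with Wnt3A, against 0.02 and 0.07 in the controls. Their part in the members' difference was not tested. Basal markers had a median difference of 0.28 with Wnt3A over 8 genes, from -0.47 to 0.79, and 1 of the 8 had a lower mean.

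**Figure D1:**
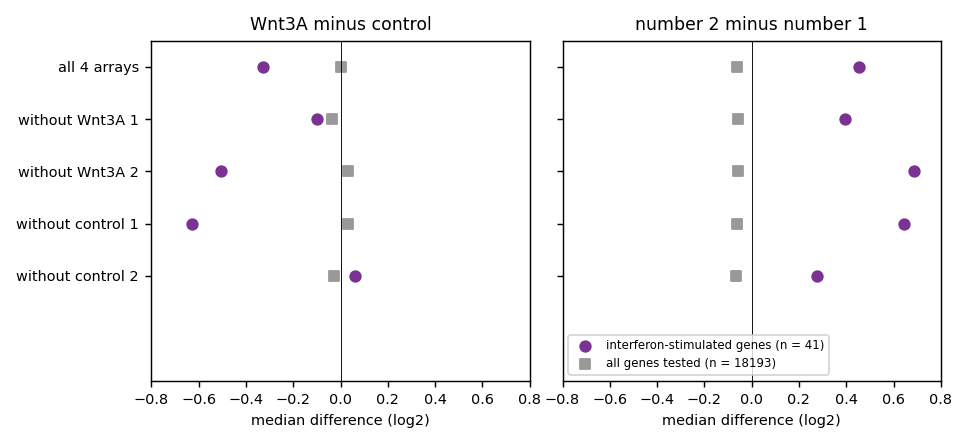
Median log2 difference of the 41 interferon-stimulated genes (circles) and of all 18193 genes (squares) with all 4 arrays and with each array left out, for Wnt3A minus control (left) and number 2 minus number 1 (right). The left median of the members lay between -0.63 and 0.06 and crossed 0 without control 2, and the right one stayed between 0.27 and 0.69.

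The second comparison set the arrays numbered 2 against those numbered 1, across both conditions. Interferon-stimulated genes had higher values in number 2: the mean difference was positive for 39 of 41 members, against 37.8% of all genes, with a median of 0.46 log2 units, against -0.06 over all genes. Both arrays of number 2 lay above both arrays of number 1 for 25 members, or 61%, where 14.3% of all genes did so. The opposite held for Tapbp alone among the members (background 31.5%). 9 members differed by at least 1 log2 unit, all of them higher in number 2 (background 1.04%) and none lower (background 0.407%): Usp18, Xaf1, Oas1a, Ifit1, Oasl2, Ifit3, Gbp3, Rtp4 and Irf7. At an adjusted p under 0.05 limma again called 0 genes (0%), with 2116 at an unadjusted p under 0.05. Of the members, 15 were higher (background 4.18%) and 0 lower (background 7.45%) at an unadjusted p under 0.05, and the smallest adjusted p among them was 0.20, for Oas1a. The median was 0.40 without Wnt3A 1, 0.69 without Wnt3A 2, 0.64 without control 1 and 0.27 without control 2. Members separated higher in number 2 numbered 30 without Wnt3A 1 (27% of all genes), 35 without Wnt3A 2 (26.5%), 34 without control 1 (26.4%) and 26 without control 2 (25.8%). Basal cell markers were also higher in number 2, with a median difference of 0.56 over 8 genes, 5 of them separated higher and 1 lower, from the keratin gene Krt5 at -0.39 ± 0.20 to the smooth muscle myosin gene Myh11 at 1.43 ± 0.47. Their medians by array were 0.10 and 0.22 in Wnt3A 2 and control 2, against -0.11 and -0.38 in Wnt3A 1 and control 1, and their part in the members' difference was not tested.

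**Figure D2:**
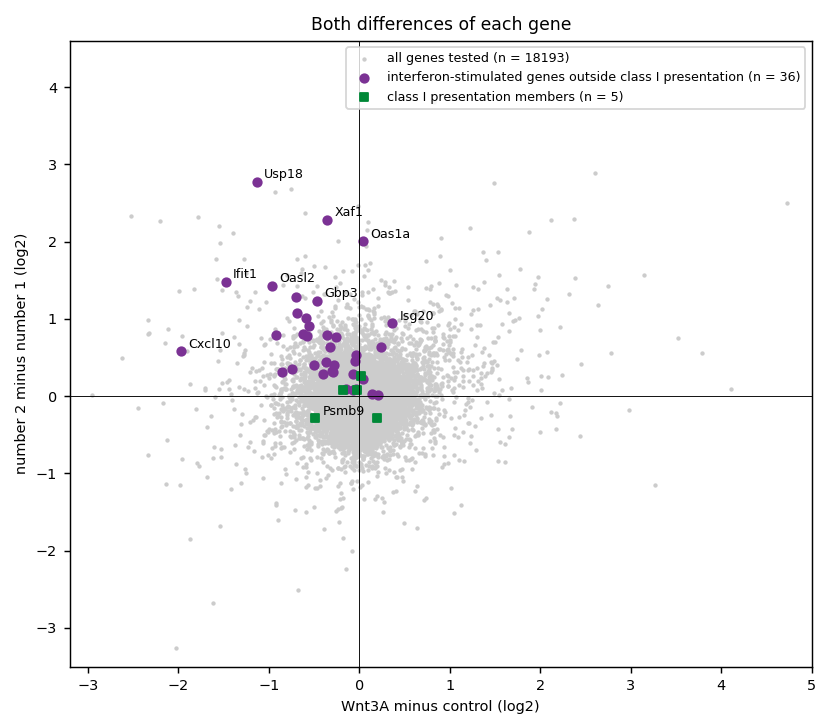
Each point is a gene, placed by its mean log2 difference Wnt3A minus control (x axis) and number 2 minus number 1 (y axis), with all 18193 genes in grey, 36 interferon-stimulated genes as circles and the 5 class I presentation members as squares. Most circles lie above 0 on the y axis and left of 0 on the x axis, while the squares lie within 0.49 of 0 on both axes.

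Within each number most members were lower with Wnt3A. Wnt3A 1 minus control 1 had a median of -0.18 over the members and Wnt3A 2 minus control 2 a median of -0.41, against 0.00069 and -0.0012 over all genes. Both differences were negative for 24 members, or 58.5%, where 29.7% of all genes showed this, and both were positive for 2 members, Isg20 and Tapbp (background 29.5%). The other 15 members differed in sign between the numbers (background 40.6%). Over all 41 members, the median of number 2 minus number 1 was 0.46 between the Wnt3A arrays and 0.59 between the controls. Number 2 was higher within both conditions for 32 members (background 22.8%). As a result 16 members had the ascending order Wnt3A 1, control 1, Wnt3A 2, control 2, or 39%, against 4.25% of all genes. Another 7 members had the order Wnt3A 1, Wnt3A 2, control 1, control 2, or 17.1%, against 4.28%. With 1 array in each cell of this layout, whether the Wnt3A difference varied between the numbers could not be tested.

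**Figure D3:**
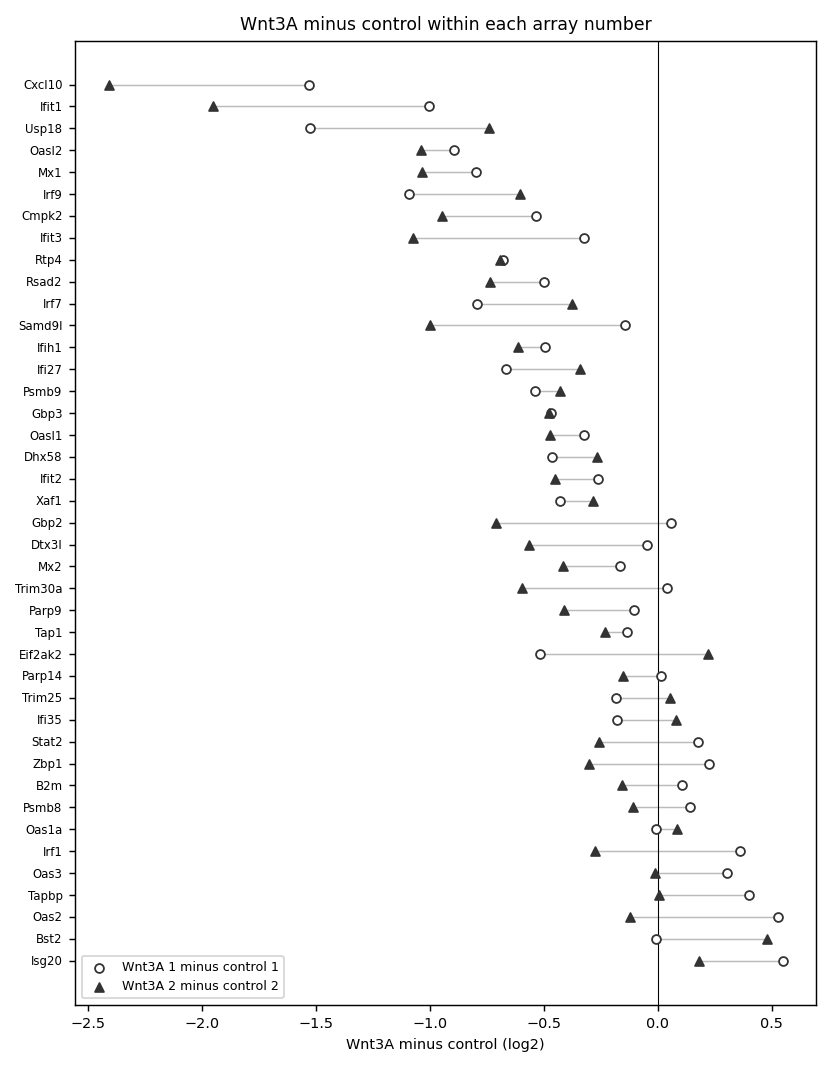
Log2 difference of Wnt3A 1 minus control 1 (open circles) and Wnt3A 2 minus control 2 (triangles) for the 41 measured interferon-stimulated genes, ordered by the mean of the pair of values. Both symbols lie left of 0 for 24 genes, from Cxcl10 at -1.53 and -2.41 to Tap1 at -0.14 and -0.23, and right of 0 for Isg20 and Tapbp.

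Promoters of the members were searched for motifs that interferon-activated factors bind. The members were chosen as interferon-stimulated genes, so a raised share of matches says nothing about the order of the arrays. RefSeq promoter windows of 300 bases on GRCm38.p6, from 250 bases before the annotated start to 50 after it, were given for 33 of the 43 genes. The core of the interferon-stimulated response element, GAAA and GAAA with any 2 bases between them, on either strand, was found for 15 of these 33 genes, or 45.5%, against 3.99% of 27025 genes with a window. The gamma-activated site TTCNNNGAA, a motif of the interferon gamma response, was found for 8, or 24.2%, against 9.55%, and in Bst2 the motifs overlapped. The 14 measured members with a response element match had a median difference of -0.30 for Wnt3A minus control and 0.64 for number 2 minus number 1. The 17 without a match had medians of -0.36 and 0.33, so both sets had the same signs. A match is a description of the letters and not a bound site. For 6 genes with a match the 250 bases before the start are shown from 5′ to 3′ in the direction of the gene, with every match to the response element core in capitals. The first 5 belong to genes with large differences between arrays, and that of B2m to a gene whose arrays hardly differed.
Ifit1 (chr19:34640639-34640888, plus strand): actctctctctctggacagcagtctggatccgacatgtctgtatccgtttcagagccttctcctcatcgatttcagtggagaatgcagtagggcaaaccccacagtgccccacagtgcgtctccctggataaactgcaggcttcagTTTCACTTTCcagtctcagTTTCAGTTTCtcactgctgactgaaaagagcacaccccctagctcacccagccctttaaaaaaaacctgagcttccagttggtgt
Ifit3 (chr19:34583279-34583528, plus strand): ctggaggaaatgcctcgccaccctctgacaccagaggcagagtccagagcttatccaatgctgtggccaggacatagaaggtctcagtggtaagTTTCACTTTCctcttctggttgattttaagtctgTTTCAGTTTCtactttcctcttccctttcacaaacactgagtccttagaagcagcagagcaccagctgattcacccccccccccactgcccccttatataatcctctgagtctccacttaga
Oas1a (chr5:120907526-120907775, minus strand): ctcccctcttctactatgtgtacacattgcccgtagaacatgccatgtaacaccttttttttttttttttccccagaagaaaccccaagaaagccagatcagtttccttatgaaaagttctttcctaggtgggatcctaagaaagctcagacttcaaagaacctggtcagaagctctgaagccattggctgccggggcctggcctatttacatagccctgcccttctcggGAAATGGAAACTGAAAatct
Gbp3 (chr3:142559794-142560043, plus strand): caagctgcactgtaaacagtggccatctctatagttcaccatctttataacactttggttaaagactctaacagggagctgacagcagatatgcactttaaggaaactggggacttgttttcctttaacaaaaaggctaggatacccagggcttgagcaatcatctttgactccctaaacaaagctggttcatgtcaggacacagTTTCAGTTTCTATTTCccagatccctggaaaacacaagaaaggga
Cxcl10 (chr5:92348890-92349139, minus strand): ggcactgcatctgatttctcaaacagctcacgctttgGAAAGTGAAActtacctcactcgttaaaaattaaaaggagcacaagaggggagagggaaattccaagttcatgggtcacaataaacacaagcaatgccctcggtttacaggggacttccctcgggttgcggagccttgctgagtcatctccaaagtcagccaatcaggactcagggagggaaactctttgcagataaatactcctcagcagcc
B2m (chr2:122147437-122147686, plus strand): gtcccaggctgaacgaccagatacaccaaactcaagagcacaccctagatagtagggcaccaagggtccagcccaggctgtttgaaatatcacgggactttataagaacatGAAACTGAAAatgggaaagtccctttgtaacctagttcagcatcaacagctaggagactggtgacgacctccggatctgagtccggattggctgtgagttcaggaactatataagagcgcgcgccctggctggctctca
Ifit1 held 2 separate matches, whose first bases lay 104 and 85 bases before the start, and those of Ifit3 lay 156 and 122 bases before it. In Oas1a the 2 matches overlapped, with first bases 20 and 14 bases before the start, and likewise in Gbp3 at 45 and 39 bases. Cxcl10 held 1 match with its first base 213 bases before the start, and B2m 1 match at 139 bases. The windows of Irf7, Oasl2 and Xaf1, which had large differences between the numbers, held no match to the core.

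**Figure D4:**
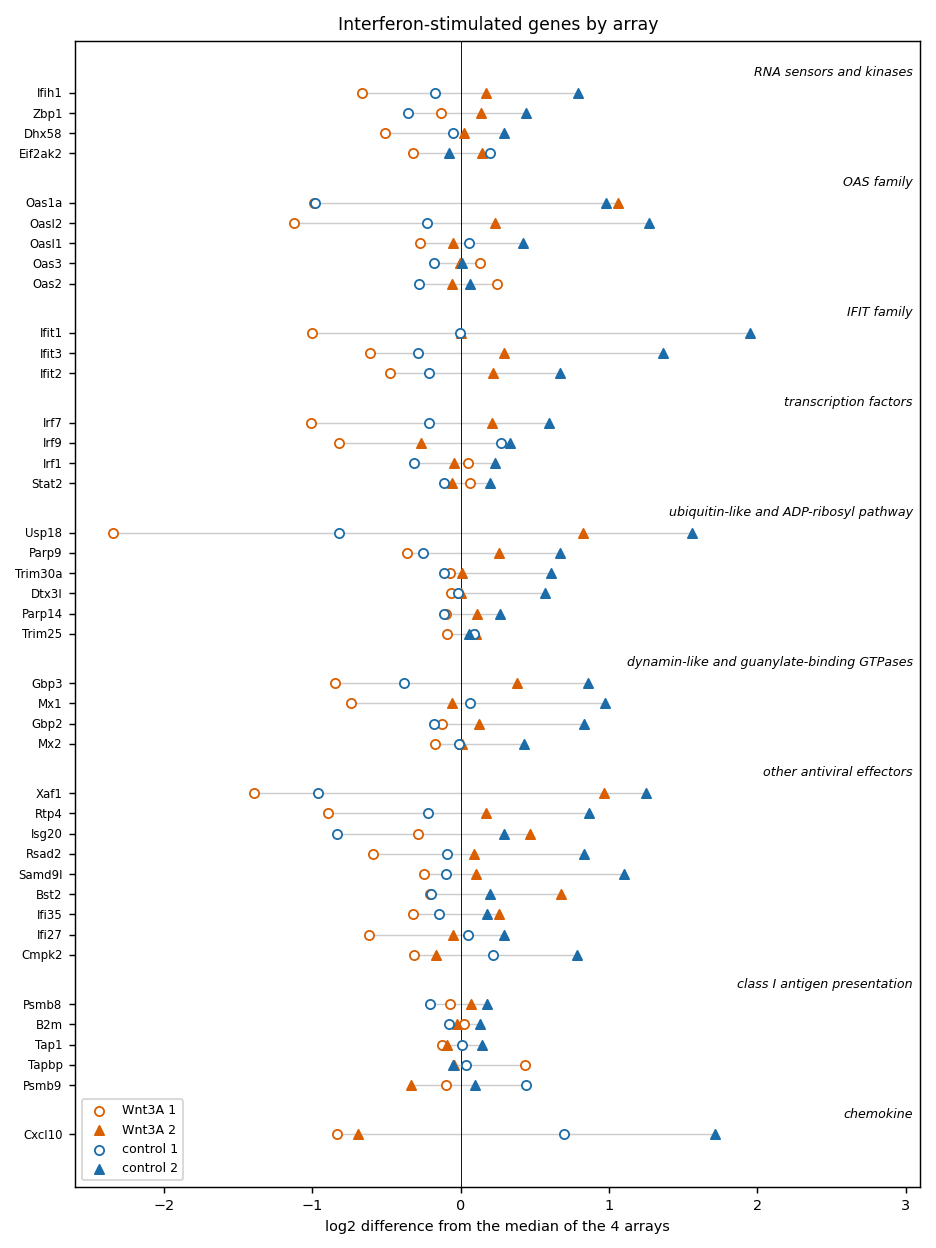
Log2 difference from the median of the 4 arrays (x axis) for each of the 41 measured interferon-stimulated genes, grouped by role, with Wnt3A in orange, control in blue, number 1 as open circles and number 2 as filled triangles. Both triangles lie right of both circles for 25 genes, Usp18 has the widest spread, and class I presentation genes stay within 0.45 of 0.

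IFIT proteins bind viral RNA and block its translation. All 3 measured genes of the family had their lowest value in Wnt3A 1 and their highest in control 2, as did 23 of the 41 members in all (background 8.55%). Ifit1 was at -1.0 and 0.0022 in Wnt3A 1 and 2, against -0.0022 and 1.95 in control 1 and 2, so that the middle arrays were nearly equal and number 2 was just above number 1. Its Wnt3A minus control difference was -1.48 ± 0.74 (SE, limma adjusted p = 0.79), and its number 2 minus number 1 difference was of the same size, 1.48 ± 0.76 (adjusted p = 0.52). Leaving out control 2 gave a Wnt3A difference of -0.50 and a number difference of 0.51, whereas the first was -2.45 without control 1 and the second 2.46 without Wnt3A 2. Ifit3 was at -0.61 and 0.29 with Wnt3A, against -0.29 and 1.36 in the controls, a number difference of 1.28 ± 0.40. Ifit2 was at -0.48 and 0.22 with Wnt3A, against -0.22 and 0.67 in the controls. In Ifit3 and Ifit2 both conditions were higher in number 2, while the conditions overlapped. Mouse Ifit3 has a near-identical neighbour, Ifit3b, so its probe signal cannot be assigned to it with certainty.

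The OAS genes encode oligoadenylate synthetases, which answer viral RNA by making the activator of RNase L, and OAS-like proteins. They were not uniform. Oas1a was at -0.99 and 1.06 in Wnt3A 1 and 2, against -0.98 and 0.98 in control 1 and 2. The conditions thus coincided within each number, and number 2 was higher by 2.01 ± 0.10, a 4.01-fold difference (limma adjusted p = 0.20). Oas1a has close paralogs in the mouse, so the probe set may read several of them. Oasl2 was at -1.13 and 0.23 with Wnt3A, against -0.23 and 1.27 in the controls, and differed by -0.97 ± 0.68 with Wnt3A and by 1.43 ± 0.48 between the numbers. The Wnt3A difference was -0.22 without control 2 and -0.29 without Wnt3A 1, but -1.72 without control 1 and -1.65 without Wnt3A 2. Oasl1, which in the mouse restrains Irf7 translation, was at -0.27 and -0.05 with Wnt3A, against 0.05 and 0.42 in the controls, so its conditions did not overlap. Oas2 and Oas3 differed little, by 0.20 ± 0.19 and 0.14 ± 0.13 with Wnt3A and by 0.02 ± 0.21 and 0.03 ± 0.14 between the numbers.

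Among the sensors, Ifih1, which encodes the RNA receptor MDA5, was at -0.67 and 0.17 with Wnt3A, against -0.17 and 0.79 in the controls. Its number difference was 0.90 ± 0.29 and its Wnt3A difference -0.56 ± 0.44, with overlapping conditions. Dhx58, which encodes the related protein LGP2, followed the same order of arrays, with a number difference of 0.44 ± 0.21. Zbp1, a nucleic acid sensor of cell death pathways, was lowest in control 1 at -0.36 and highest in control 2 at 0.44. Eif2ak2, the kinase PKR that halts translation, was the sensor whose average over 3 probe sets had no separation in either comparison. This average was at -0.32 and 0.14 with Wnt3A, against 0.20 and -0.08 in the controls. The probe sets differed by -0.29 to 0.58 between the numbers and by -0.30 to -0.03 with Wnt3A. Taken alone, a probe set was separated higher in number 2 and another lower with Wnt3A.

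Among the transcription factors, Irf9, the DNA-binding subunit of ISGF3, differed most with Wnt3A. It was at -0.82 and -0.27 in Wnt3A 1 and 2, against 0.27 and 0.34 in control 1 and 2, so the conditions did not overlap. The difference was -0.85 ± 0.22, a 1.80-fold difference (limma adjusted p = 0.55). It was -1.13 without Wnt3A 2 and -0.57 without Wnt3A 1. Irf7, the factor that amplifies interferon production, was at -1.01 and 0.21 with Wnt3A, against -0.21 and 0.59 in the controls, and differed by 1.01 ± 0.32 between the numbers. Stat2, the partner of Irf9 in ISGF3, differed by -0.04 ± 0.16 with Wnt3A and 0.10 ± 0.14 between the numbers. Irf1, a factor of the interferon gamma response, differed by 0.04 ± 0.22 and 0.23 ± 0.18.

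Usp18, the protease that removes the ubiquitin-like protein ISG15 and damps receptor signalling, had the largest number difference of the members. It was at -2.35 and 0.82 in Wnt3A 1 and 2, against -0.82 and 1.56 in control 1 and 2. Number 2 was higher by 2.78 ± 0.59, a 6.85-fold difference (limma adjusted p = 0.35), and Wnt3A differed by -1.13 ± 1.32. The Wnt3A difference was 0.45 without Wnt3A 1 and 0.06 without control 2, against -2.72 without Wnt3A 2 and -2.32 without control 1. Parp9, which acts with the ubiquitin ligase Dtx3l, was at -0.36 and 0.26 with Wnt3A, against -0.26 and 0.67 in the controls, a number difference of 0.77 ± 0.17. Dtx3l was highest in control 2 at 0.57, and its other arrays lay between -0.07 and -0.00018. Parp14 and Trim30a were also separated by number, by 0.29 ± 0.11 and 0.40 ± 0.23. The 2 probe sets of Parp14 differed in sign between the numbers, at 0.64 and -0.06. Trim25, the ligase that activates the RNA receptor RIG-I, differed by 0.08 ± 0.11.

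Mx1 and Mx2 encode dynamin-like GTPases that trap viral particles, and Gbp2 and Gbp3 guanylate-binding proteins that attack vacuoles of pathogens. Mx1 was at -0.74 and -0.06 in Wnt3A 1 and 2, against 0.06 and 0.97 in control 1 and 2. Its conditions did not overlap, with a difference of -0.92 ± 0.39 (limma adjusted p = 0.73) that was -0.46 without control 2 and -1.37 without control 1. Gbp3 was at -0.85 and 0.38 with Wnt3A, against -0.38 and 0.86 in the controls, and was 1.23 ± 0.25 higher in number 2, a 2.35-fold difference. Within each number Gbp3 differed by -0.47 and -0.48 with Wnt3A. Gbp2 and Mx2 were highest in control 2, at 0.83 and 0.42, and were 0.63 ± 0.26 and 0.31 ± 0.18 higher in number 2.

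The other antiviral effectors were all higher in number 2 within both conditions, 9 of 9, as were 32 of the 41 members in all (background 22.8%). Xaf1, which encodes a partner of the apoptosis inhibitor XIAP, was at -1.39 and 0.96 with Wnt3A, against -0.96 and 1.25 in the controls, a number difference of 2.28 ± 0.20 or 4.87-fold (limma adjusted p = 0.25). The size rested on 1 of its 2 probe sets, which differed by 4.11, while the other, in the upper level band, differed by 0.46. Rtp4, which encodes an antiviral member of the receptor transporter protein family, was 1.08 ± 0.35 higher, with probe sets at 2.12 and 0.03. Rsad2, the antiviral enzyme viperin, was at -0.59 and 0.09 with Wnt3A, against -0.09 and 0.83 in the controls. Its 3 probe sets differed by 0.12 to 1.37 between the numbers and by -0.85 to -0.22 with Wnt3A. Samd9l, an antiviral factor that limits translation, was highest in control 2 at 1.10 and was 0.78 ± 0.36 higher in number 2.

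Cmpk2, a nucleotide kinase encoded next to Rsad2, was at -0.32 and -0.17 with Wnt3A, against 0.22 and 0.78 in the controls. Ifi27, a mitochondrial protein gene, was at -0.62 and -0.05 with Wnt3A, against 0.05 and 0.29 in the controls. These were the effectors whose conditions did not overlap, with differences of -0.74 ± 0.22 and -0.51 ± 0.23. The Cmpk2 probe sets differed by -1.32 and -0.16 with Wnt3A. Isg20, an RNA exonuclease gene, ran the other way and was at -0.29 and 0.47 with Wnt3A, against -0.84 and 0.29 in the controls. Bst2, which encodes the membrane tether tetherin, was highest in Wnt3A 2 at 0.68, with the other arrays between -0.21 and 0.20. Ifi35, an adaptor protein gene, was 0.46 ± 0.11 higher in number 2 and differed by -0.05 ± 0.25 with Wnt3A.

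Class I antigen presentation members differed by under 0.5 log2 units in both comparisons. Tap1, a subunit of the peptide transporter, was at -0.13 and -0.09 with Wnt3A, against 0.01 and 0.14 in the controls, a difference of -0.18 ± 0.12. Its probe set in the upper level band differed by -0.47 with Wnt3A and 0.43 between the numbers, and the other 3 probe sets by -0.11 to -0.07 with Wnt3A. Psmb9, an immunoproteasome subunit, was at -0.10 and -0.33 with Wnt3A, against 0.44 and 0.10 in the controls. Its conditions did not overlap, with a difference of -0.49 ± 0.18 (limma adjusted p = 0.66), and it was lower in number 2 by a difference of -0.29 ± 0.26. Psmb8, another immunoproteasome subunit, differed by 0.01 ± 0.18 with Wnt3A and 0.26 ± 0.11 between the numbers. Tapbp, the tapasin gene that loads peptides, was highest in Wnt3A 1 at 0.43, with the other arrays between -0.05 and 0.03. B2m, the light chain of class I, lay between -0.08 and 0.13 in every array. The median of the 5 genes was -0.03 for Wnt3A and 0.08 for the number, against -0.36 and 0.60 for the other 36 members, a contrast that was not tested.

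Cxcl10, which encodes a chemokine that draws T cells and NK cells, had the largest Wnt3A difference of the members. It was at -0.84 and -0.70 in Wnt3A 1 and 2, against 0.70 and 1.71 in control 1 and 2. The conditions did not overlap, and the difference was -1.97 ± 0.36, or 3.92-fold lower (limma adjusted p = 0.44). It was -1.53 within number 1 and -2.41 within number 2, and it lay between -2.48 and -1.46 with each array left out. The number difference of Cxcl10 was 0.58 ± 0.99, which was -0.63 without control 2 and 1.78 without Wnt3A 2.

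Genes upstream of the response were taken from separate lists. None of them passed the limma test in either comparison, nor did any other gene. Of 10 measured interferon genes, which encode the ligands, 1 was below both controls in both Wnt3A arrays, and 2 were separated higher and 4 lower in number 2, where 17.5%, 14.3% and 31.5% of all genes were. Ifnz, an interferon zeta gene, was at -0.46 and 0.60 with Wnt3A, against -0.26 and 0.26 in the controls, a number difference of 0.79 ± 0.16. Ifnb1, the interferon beta gene, was at 0.31 and -0.07 with Wnt3A, against 0.07 and -0.10 in the controls. All 6 measured receptor genes had lower means in number 2, as did 62.2% of all genes, with a median of -0.37 and 4 of them separated (background 31.5%). Ifnar1, a chain of the type I receptor, differed by -0.13 ± 0.12 between the numbers, its partner Ifnar2 by -0.48 ± 0.14, and Ifngr1, a chain of the interferon gamma receptor, by -0.37 ± 0.16. With Wnt3A these 3 genes differed by -0.01 ± 0.15, -0.14 ± 0.27 and -0.19 ± 0.22.

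Of the 9 measured relay genes, Jak1 stood apart. It was at -0.48 and 0.45 with Wnt3A, against -0.47 and 0.52 in the controls, so number 2 was higher by 0.96 ± 0.10 (limma adjusted p = 0.25) while Wnt3A differed by -0.04 ± 0.46. Socs3, a feedback inhibitor of JAK signalling, was 0.74 ± 0.20 higher in number 2, while the related inhibitor gene Socs1 was lower, by a difference of -0.39 ± 0.10. In all 3 of the 9 relay genes were separated higher in number 2 (background 14.3%) and 2 lower (background 31.5%). Of 17 measured genes of RNA and DNA sensing, 8 were separated higher in number 2 (background 14.3%) and 3 lower (background 31.5%). Ifi204, a DNA-binding protein gene that interferon also induces, was 1.42 ± 0.37 higher, while Cgas, the DNA sensor, was lower by a difference of -0.79 ± 0.16.

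A separate list of 35 measured interferon-stimulated genes outside the 41 was looked up for the same pattern. Like the members, these genes were chosen with earlier results of these data known, so they are no independent check. The median was -0.09 for Wnt3A minus control and 0.14 for number 2 minus number 1, with 11 genes separated lower with Wnt3A (background 17.5%) and 1 higher (17%), and 12 higher in number 2 (14.3%) and 6 lower (31.5%). 3 interferon-inducible GTPase genes had their lowest value in Wnt3A 1 and their highest in control 2. Igtp was at -0.99 and 0.09 with Wnt3A, against -0.09 and 1.27 in the controls. Irgm2 was at -1.14 and -0.17 with Wnt3A, against 0.17 and 1.00 in the controls, and Ifi47 was at -1.25 and 0.37 with Wnt3A, against -0.37 and 0.85 in the controls. This pair of extremes was found for 13 of the 35 genes and for 23 of the 41 members, where the background was 8.55%.

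Nlrc5, the activator of class I genes, was at -1.39 and 0.91 with Wnt3A, against -0.87 and 0.87 in the controls, a number difference of 2.01 ± 0.20. Over the 9 class I genes outside the members, Nlrc5 included, the median number difference was -0.16, with 1 gene separated higher (background 14.3%) and 3 lower (31.5%). Of 6 measured class II genes, 5 were separated lower in number 2 (background 31.5%), and the median over the 6 was -0.19. Their Wnt3A differences ran from 0.02 to 0.64, so 0 of the 6 had a lower mean (background 49.9%). H2-Ab1, a class II gene lower in number 2, was at 1.90 and -0.62 with Wnt3A, against 0.45 and -0.45 in the controls. The 11 measured immune cell markers had a median of 0.04 for Wnt3A minus control and -0.09 for number 2 minus number 1, with differences from -0.17 to 0.28 and from -0.28 to 0.07. Their medians by array were 0.06 and -0.02 with Wnt3A, against 0.02 and -0.05 in the controls. Of these markers 2 lay in the upper level band and 7 in the middle one. The lowest band held 2, among them Ptprc, the pan-leukocyte marker.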

How the data were processed

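RNA from 4 samples was hybridised to Affymetrix mouse arrays with 1 colour. Per the submitters' processing notes RMA was used, with no version named, and the authors deposited its log2 values. How they were centred is not stated in the labels: the median of each of the 45101 rows was 0, so the deposited log2 values are differences from it. Of 45037 probe sets other than array controls, 34945 had 1 symbol in the platform annotation, 932 several and 9160 none. Those with 1 symbol were averaged per gene, with no filter on low values, which gave 18193 genes. No symbol changed through the RefSeq gene table, where 34741 identifiers matched.

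Differences were tested two-sided in R 4.3.3 with the functions lmFit and eBayes of limma 3.58.1. P-values were adjusted over all genes by Benjamini-Hochberg (threshold 0.05), with 2 residual degrees of freedom, and errors are standard errors of this fit. The script was tested on simulated data. The number of arrays limits the precision. Level bands, used to describe genes and in 2 alternatives, take the lowest array of a probe set and place some probe sets too high. The members and lists were chosen with earlier results of these data known. Values in each array are given for members separated between conditions and the 10 with the largest difference in each comparison, and for further members by role. From the other lists, genes among the 4 with the largest difference and a fixed set of pathway genes are named. 1 gene of that set is not reported here, and Ptprc was named after its values were seen. Motifs were searched in RefSeq promoter windows of GRCm38.p6. Alternatives were level bands, a filter on low values, quantile normalization, centring of arrays, robust eBayes, each array left out, the array number as a block, and single probe sets. Python 3.11.15 and matplotlib 3.10.9 drew the figures.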

Additional observations from a re-analysis of the deposited data

How the results depend on the processing

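The direction of the members' median was the same in both comparisons with level bands, a filter on low values, quantile normalization, centring of arrays, robust eBayes, the array number as a block and single probe sets. With each array left out, the median Wnt3A minus control difference lay between -0.63 and 0.060, turning positive without control 2, and the median number 2 minus number 1 difference between 0.27 and 0.69. The count of members below both controls lay between 8 and 32 with an array left out. When probe sets were tested one by one, 16 of 67 were below both controls. This counts probe sets and not genes, so it cannot be set directly against the 8 of 41 members, and the difference was not tested. No alternative called a gene at an adjusted p under 0.05 in limma. With the array number as a replicate block 0 genes were called in either comparison, and 19 members were lower with Wnt3A (background 6.57%) and 21 higher in number 2 (background 6.29%) at an unadjusted p under 0.05. Deviations of same-numbered arrays correlated at 0.445 over genes, but with 2 pairs and no label this does not establish pairing.

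With an array left out, Wnt3A minus control changed sign for 23 of 41 members and the number difference for 9. Of the 19 members chosen for values in each array, the first changed sign for Ifit3 (-1.53 to 0.13), Usp18 (-2.72 to 0.45), Oas1a (-0.99 to 1.06), Irf7 (-1.20 to 0.025), Gbp3 (-1.09 to 0.15), Isg20 (-0.20 to 0.93) and Xaf1 (-1.53 to 0.82). Among the same 19 the number difference changed sign for Irf9 (-0.24 to 0.86), Cmpk2 (-0.12 to 0.83), Tap1 (-0.033 to 0.20) and Cxcl10 (-0.63 to 1.78). The Wnt3A difference of Oas1a was -0.045 after quantile normalization, and the lowest probe set gave a number difference of -0.054 for Cmpk2 and -0.068 for Tap1.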

Other observations

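A probe set shared by Isg15, the gene of the ubiquitin-like protein that Usp18 removes, and Gm9706 was kept out of the comparisons because it has 2 symbols. It was at -1.45 and 0.07 in Wnt3A 1 and 2, against -0.07 and 0.18 in control 1 and 2. Its differences were -0.74 for Wnt3A minus control and 0.88 for number 2 minus number 1. Another, shared by Trim30d and Trim30a and below log2 4 on its lowest array, had differences of -0.09 and 0.02.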
